A study of Homo sapiens with 4 samples.

Results

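The 10 genes described here, MED1, CDK12, PPP1R1B, STARD3, PGAP3, ERBB2, MIEN1, GRB7, IKZF3 and ORMDL3, lie close together around ERBB2 on the long arm of chromosome 17. In the coordinates of the count table (GRCh38) they run from the start of MED1 at 39404285 to the end of ORMDL3 at 39927601, with ERBB2 on the plus strand from 39687914 to 39730426, and all are protein-coding. They are defined by symbol and position, not by a threshold on a measured value. They are 10 of the 58735 genes in the deposited count table, and all 10 were among the 15817 genes with enough counts to be tested. RNA-seq was performed in HCC1954, an established human breast cancer line that carries an amplified HER2 (ERBB2) region. The samples comprised 2 labelled shCON, which received a scrambled short hairpin RNA, and 2 labelled shZDHHC15, which received a hairpin against the palmitoyltransferase ZDHHC15. All 4 were grown in RPMI-1640 medium with fetal bovine serum. The labels call the knockdown stable in 1 place and transient, with harvest 36 h after plasmid transfection, in another, and they do not say whether the numbers 1 and 2 are separate cultures or separate hairpins. Therefore, the p-values below measure only the spread between these samples, which may be technical, and a single line stands for every result.

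Amplification of this stretch of chromosome 17 is a classic event in breast cancer, where it raises the number of copies of ERBB2, a receptor tyrosine kinase that pairs with EGFR and ERBB3 and is the target of trastuzumab. Genes that sit beside ERBB2 are often copied with it, and STARD3, PGAP3, MIEN1 and GRB7 are usually counted among the core of the amplicon. Copied genes need not all be transcribed, since a gene without an active promoter in that cell type can remain silent at any copy number. Copy number itself was not measured in these data.

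The promoters of the region are shown first, because neighbouring members sit close enough to share sequence. RefSeq (GRCh38.p14) promoter windows, running from 250 bases before to 50 bases after a transcription start, were on hand for 7 members, in 9 windows. The windows on hand for ERBB2, on the plus strand, and PGAP3, on the minus strand, share 136 bases. This ERBB2 window lies at the left end of the annotated gene. Whether the most abundant ERBB2 transcript starts there was not tested, and other ERBB2 starts were not searched. In the ERBB2 window (chr17:39687844-39688143, plus strand), the capitals mark the bases shared with the PGAP3 window. STARD3 (chr17:39636894-39637193, plus strand) and MIEN1 (chr17:39730483-39730782, minus strand) are shown as the pair of abundant members with the largest falls, with CCGGAA, the core recognised by ETS factors, in capitals on either strand. CDK12 (chr17:39461236-39461535, plus strand) is shown as a member that rose, with GGAATG, the core recognised by the YAP partners of the TEAD family, in capitals.
ERBB2: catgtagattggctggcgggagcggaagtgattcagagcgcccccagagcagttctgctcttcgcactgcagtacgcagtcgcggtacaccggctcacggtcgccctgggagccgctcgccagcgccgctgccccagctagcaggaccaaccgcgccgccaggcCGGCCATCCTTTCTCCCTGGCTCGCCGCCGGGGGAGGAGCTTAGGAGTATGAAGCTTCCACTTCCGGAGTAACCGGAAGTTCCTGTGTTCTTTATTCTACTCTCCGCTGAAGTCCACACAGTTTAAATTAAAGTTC
STARD3: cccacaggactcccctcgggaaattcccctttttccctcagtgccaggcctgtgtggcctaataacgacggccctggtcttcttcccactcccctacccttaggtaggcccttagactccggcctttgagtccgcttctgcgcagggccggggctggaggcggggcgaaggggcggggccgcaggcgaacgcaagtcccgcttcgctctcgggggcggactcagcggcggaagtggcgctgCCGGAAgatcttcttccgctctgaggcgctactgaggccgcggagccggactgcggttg
MIEN1: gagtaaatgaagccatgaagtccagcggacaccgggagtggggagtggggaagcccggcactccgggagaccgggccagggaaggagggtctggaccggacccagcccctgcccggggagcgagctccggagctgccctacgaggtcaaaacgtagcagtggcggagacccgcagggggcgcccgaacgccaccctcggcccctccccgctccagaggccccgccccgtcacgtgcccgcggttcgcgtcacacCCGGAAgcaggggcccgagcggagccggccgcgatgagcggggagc
CDK12: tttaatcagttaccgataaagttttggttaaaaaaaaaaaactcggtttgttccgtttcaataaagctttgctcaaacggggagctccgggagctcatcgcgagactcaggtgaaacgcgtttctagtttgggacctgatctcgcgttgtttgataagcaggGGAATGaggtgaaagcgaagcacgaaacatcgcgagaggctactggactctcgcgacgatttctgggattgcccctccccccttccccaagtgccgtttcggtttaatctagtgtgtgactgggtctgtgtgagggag

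CCGGAA, searched on both strands, was found in windows of 4 members, ERBB2, PGAP3, STARD3 and MIEN1, and in 17.2% of all 35116 promoter windows. Both of the 2 matches in the ERBB2 window lay in the stretch shared with PGAP3. GGAATG was found for CDK12 and for 1 of the windows of ORMDL3, against 14% of all windows. The AP-2 motif GCCNNNGGC was found only in the STARD3 window among those on hand, against 23.2% of all windows. Since other ERBB2 starts were not searched, its absence from the ERBB2 window does not describe every ERBB2 promoter. These matches describe the letters in the windows and say nothing of binding.

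ZDHHC15, the targeted gene, had 17617 and 15716 counts in the shCON samples and 0 in both shZDHHC15 samples, at least 6045-fold lower when 3 counts per library are allowed for a count of 0. A hairpin usually leaves part of its target's transcript, and the labels do not account for the absence of any read, so that shZDHHC15 is used below as the name of the samples. Total counts ranged from 17560982 to 19118704 per sample, so that 3 counts were worth 0.153 to 0.178 counts per 1000000 (CPM), and such limits cover counting error only. Replicates differed by more than counting error, with a chi-square per degree of freedom of 8.32 between the shCON and 6.79 between the shZDHHC15 samples. The label of a breast epithelial line was checked against markers. All 6 luminal or general epithelial markers and all 5 basal markers were among the tested genes, whereas 7 of 12 leukocyte markers and 5 of 7 fibroblast markers had at most 3 counts in every sample, including CD3D and LUM at 0 throughout. However, 2 leukocyte markers were tested, of which CD14 was higher and CSF1R lower. Among fibroblast markers 1, COL1A1, was tested and was higher. Of 4 endothelial genes, VWF had at most 7 counts, CDH5 and PECAM1 (75 and 56 against 666 and 405 counts) were higher and KDR was lower. The epithelial markers moved with the group: 4 of 6 luminal or general markers were lower, among them KRT8 (105283 and 106976 against 34507 and 40916 counts), and KRT19 (343 and 339 against 503 and 506 counts) was higher, while the summed luminal level was 2221 and 2416 RPKM in shCON and 940 and 1037 in shZDHHC15. Of the 5 basal markers 4 were lower and 1, TP63 (802 and 665 against 1265 and 1176 counts), was higher, and the summed basal level was 2446 and 2798 RPKM against 953 and 1207. The part of this shift in the results below was not tested.

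The first question was how strongly each gene of the region was expressed. Levels are given as RPKM, reads per kilobase of exon per 1000000 counts, with the counts scaled by TMM factors, which put the 4 libraries on a common scale. Along the chromosome, expression did not form a single block. In shCON, MED1 and CDK12 at the left end stood at 8.84 ± 1.42 and 10.4 ± 0.937 RPKM (SD, n = 2), PPP1R1B stood at 1.43 ± 0.0875, and the next 5 genes stood between 182 and 838. STARD3 reached 663 ± 39.6, PGAP3 182 ± 8.22, ERBB2 557 ± 23.3, MIEN1 489 ± 35.1 and GRB7 838 ± 38.8 RPKM. IKZF3 stood at 0.930 ± 0.0149, and ORMDL3, at the right end, was the most abundant member at 912 ± 48.6 RPKM.

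By shCON level the order was ORMDL3, GRB7, STARD3, ERBB2, MIEN1, PGAP3, CDK12, MED1, PPP1R1B and IKZF3, and the shZDHHC15 samples gave the same order of means. Only CDK12 (9.69 to 11 RPKM) and MED1 (7.84 to 9.85) had overlapping sample ranges among neighbours in this order in shCON. In shZDHHC15, STARD3 (465 to 502) and ERBB2 (456 to 487) overlapped, while CDK12 (12.7 to 13.7) and MED1 (10.3 to 11.9) were apart. Among the 15817 tested genes ranked by mean shCON RPKM, ORMDL3 held place 25, GRB7 30, STARD3 40, ERBB2 57, MIEN1 64 and PGAP3 223. In contrast, CDK12 held place 4413, MED1 4879, PPP1R1B 10649 and IKZF3 11764. Hence 6 of the 10 genes averaged at least 100 RPKM over the 4 samples, a level that 2.67% of all tested genes and 3.14% of the 1019 tested genes of chromosome 17 reached.

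The steps between neighbouring members were steep. PPP1R1B, which encodes the protein phosphatase inhibitor DARPP-32, ends 438 bases before STARD3 begins, and STARD3 stood 462-fold above it in shCON RPKM. IKZF3, which encodes the lymphoid zinc finger protein Aiolos, has its left end 10423 bases after the end of GRB7 and lay 901-fold below GRB7. Since IKZF3 is on the minus strand, this left end is not its transcription start. ORMDL3, 56852 bases beyond IKZF3, lay 981-fold above that gene. Thus, among the 10 genes, IKZF3 stood between a pair of abundant ones, although GSDMB (61.7 RPKM), which is not among the 10, lies between IKZF3 and ORMDL3. TCAP (32.8 RPKM) and PNMT (1.66 RPKM), also not among the 10, lie between STARD3 and PGAP3.

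The divisor affects the order among the abundant members. The exon length used is the union of all annotated exons, which for ERBB2 is 10321 bases, against 4545 bases for its principal transcript. In the change of divisor below, reads over all annotated exons were kept. The resulting values are therefore not measured levels of the principal transcript. With the principal transcript in place of the union, a setting chosen after the data were seen, the shCON levels became 1604 RPKM for STARD3, 1534 for ORMDL3, 1344 for GRB7, 1265 for ERBB2, 1115 for MIEN1 and 243 for PGAP3, so that STARD3 stood first and the order from ERBB2 downwards was kept. In shZDHHC15, ORMDL3 stood first on this scale, and ERBB2 (1071) moved above GRB7 (1025). CDK12 (15.9), MED1 (11.1), PPP1R1B (3.54) and IKZF3 (0.963) kept their places. The gene bodies also overlap. ERBB2 and MIEN1 share 571 exonic bases on opposite strands (24.9% of the MIEN1 exons), and ERBB2 and PGAP3 share 194 (5.3% of the PGAP3 exons). Since the strand setting of the counting is not given in the sources used here, reads from these stretches cannot be told apart. These percentages are of bases and not of counts, so the values of MIEN1 and PGAP3 are uncertain by an amount that was not measured.

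Together, the 10 genes took 1.68% and 1.75% of all counts in shCON and 1.43% and 1.42% in shZDHHC15. The 95% Wilson interval of the first value, 1.673% to 1.684%, covers counting error only and leaves out the other shCON sample. ERBB2 alone took 0.551% and 0.570% in shCON against 0.515% and 0.484%. The groups did not overlap in either share. An exact permutation test (two-sided) gave p = 0.333 for both, the smallest p that 2 against 2 samples allow.

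The second question was how the region changed on silencing of ZDHHC15. Of the 10 genes, 6 were lower and 2 higher in shZDHHC15 at an adjusted p under 0.05 (edgeR quasi-likelihood test, Benjamini-Hochberg adjustment over all tested genes). Over all tested genes, 20.3% were lower and 21.7% higher by the same rule. STARD3, ERBB2, MIEN1, GRB7, IKZF3 and ORMDL3 fell, MED1 and CDK12 rose, and PPP1R1B and PGAP3 did not pass the test. The median log2 fold change was -0.29 over the members and 0.02 over all tested genes. The groups did not overlap for 9 members, 7 lower and 2 higher, and for 72.5% of all tested genes.

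**Figure D1:**
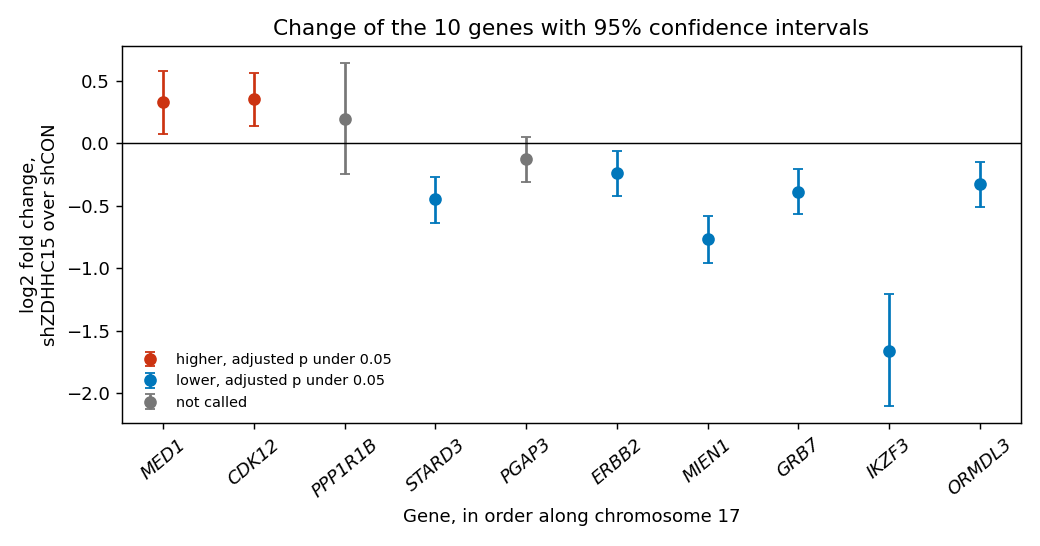
log2 fold change of shZDHHC15 over shCON for the 10 genes in chromosomal order, with 95% confidence intervals from the edgeR fit (2 samples per group); red is higher, blue lower and grey not called. The left pair, MED1 and CDK12, lies above 0, and the intervals of STARD3, ERBB2, MIEN1, GRB7, IKZF3 and ORMDL3 lie below it.

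ERBB2 itself, the receptor, had 101910 and 100029 counts in shCON and 93750 and 92598 in shZDHHC15, corresponding to 541 and 574 against 487 and 456 RPKM. Both shZDHHC15 samples lay below both shCON samples. Its log2 fold change was -0.24 (95% confidence interval -0.42 to -0.06, edgeR adjusted p = 0.0332), a level of 84.7% of shCON. This call was close to the threshold: with scaling by library size only the log2 fold change was -0.17 (adjusted p = 0.0678). It was also lost without shCON 2 (-0.21, adjusted p = 0.0869), without shZDHHC15 1 (-0.29, adjusted p = 0.124) and without shZDHHC15 2 (-0.20, adjusted p = 0.275).

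GRB7 encodes an adaptor whose SH2 domain binds phosphorylated ERBB2. It had 811 and 866 RPKM in shCON and 629 and 649 in shZDHHC15, a log2 fold change of -0.39 (SE 0.0841, edgeR adjusted p = 0.00178). MIEN1, a small prenylated membrane protein linked to migration and invasion, stood at 464 and 514 RPKM in shCON and 285 and 289 in shZDHHC15. Its log2 fold change of -0.77 (SE 0.0878, edgeR adjusted p = 7.66e-06), or 58.6% of the shCON level, was the largest fall among the 6 abundant members. The ratio of MIEN1 to ERBB2 RPKM was 0.859 and 0.896 in shCON and 0.584 and 0.633 in shZDHHC15, so that the convergent pair did not move in step. For PGAP3, whose promoter window overlaps the ERBB2 window on hand, the ratio of ERBB2 to PGAP3 was 3.08 and 3.06 against 2.98 and 2.72.

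The lipid-handling members were next compared. STARD3, a late endosomal protein that binds cholesterol and tethers endosomes to the endoplasmic reticulum, had 635 and 691 RPKM in shCON and 465 and 502 in shZDHHC15. Its log2 fold change was -0.45 (SE 0.0872, edgeR adjusted p = 0.000766), and both shZDHHC15 samples lay below both shCON samples. ORMDL3, an endoplasmic reticulum protein that restrains serine palmitoyltransferase, the first enzyme of sphingolipid synthesis, had 877 and 946 RPKM against 738 and 712, a log2 fold change of -0.33 (SE 0.0846, edgeR adjusted p = 0.00575). Without shZDHHC15 2 its adjusted p was 0.0717 at -0.31. PGAP3, which remodels the fatty acids of GPI anchors, stood at 176 and 187 RPKM in shCON and 164 and 168 in shZDHHC15. Both shZDHHC15 samples were the lower, yet the log2 fold change of -0.13 (95% confidence interval -0.31 to 0.05, edgeR adjusted p = 0.240) did not pass the test.

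The transcription members at the left end went the other way. MED1, a Mediator subunit that links nuclear receptors to RNA polymerase II, had 1318 and 971 counts in shCON and 1624 and 1486 in shZDHHC15, or 9.85 and 7.84 against 11.9 and 10.3 RPKM. Its log2 fold change was 0.33 (95% confidence interval 0.07 to 0.58, edgeR adjusted p = 0.0416). CDK12, a kinase of the polymerase tail that keeps long DNA repair genes transcribed, had 2569 and 2091 counts in shCON and 3267 and 3190 in shZDHHC15, or 11 and 9.69 against 13.7 and 12.7 RPKM, with a log2 fold change of 0.35 (95% confidence interval 0.14 to 0.56, edgeR adjusted p = 0.0103). Neither gene's groups overlapped. Without shCON 2 the log2 fold changes were 0.16 for MED1 (adjusted p = 0.303) and 0.25 for CDK12 (adjusted p = 0.0564), and without shZDHHC15 1 they were 0.22 (adjusted p = 0.297) and 0.29 (adjusted p = 0.118). 

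The least abundant members differed from each other. IKZF3 had 168 and 159 counts in shCON and 51 and 62 in shZDHHC15, or 0.919 and 0.940 against 0.273 and 0.315 RPKM. With a log2 fold change of -1.66 (SE 0.208, edgeR adjusted p = 1.98e-05), or 31.7% of the shCON level, it had the largest change of the 10, at a level that remained far below its neighbours in both groups. PPP1R1B had 114 and 115 counts in shCON and 163 and 122 in shZDHHC15. Its groups overlapped on the RPKM scale (1.37 and 1.49 against 1.92 and 1.36), and the interval of its log2 fold change of 0.19 ran from -0.25 to 0.64 (edgeR adjusted p = 0.486).

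The falls of the abundant members were then read against other genes of the same level. Among the 423 tested genes that averaged at least 100 RPKM over the 4 samples, 63.8% were lower and 13.7% higher, with a median log2 fold change of -0.36. The 6 abundant members, 5 of them lower, had a median log2 fold change of -0.36 as well. Among the 32 such genes of chromosome 17, which include these 6, 68.8% were lower. The share of genes called lower was smaller at lower levels, at 36.0% of the 4134 genes from 10 to 100 RPKM, 16.1% of the 7252 genes from 1 to 10 RPKM and 7.31% of the 4008 genes under 1 RPKM. In the last of these ranges, where IKZF3 falls, the median log2 fold change was 0.20. In the range from 1 to 10 RPKM, which holds MED1 and PPP1R1B, 25.2% of genes were higher, and in that of CDK12, from 10 to 100 RPKM, 19.0%.

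**Figure D2:**
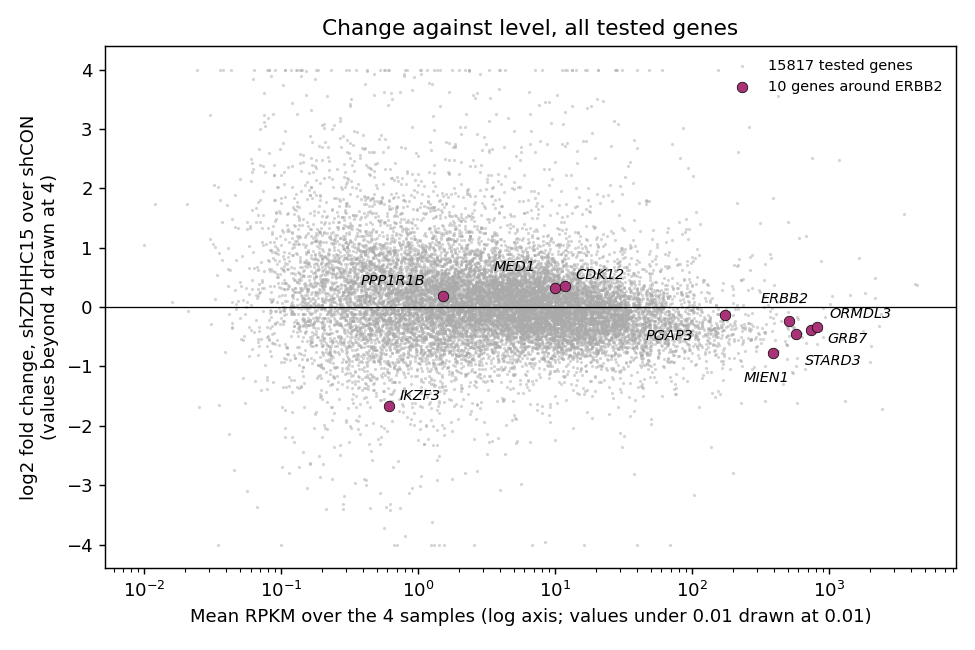
log2 fold change of shZDHHC15 over shCON against the mean RPKM over the 4 samples (log axis) for the 15817 tested genes (grey), with the 10 genes in purple. ORMDL3, GRB7, STARD3, ERBB2, MIEN1 and PGAP3 lie within a grey cloud whose median at 100 RPKM or more is -0.36, and IKZF3 lies at -1.66 in a range whose median is 0.20.

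The genes around the 10 were described to see where the high levels stop. From 1000000 bases before MED1 to 1000000 bases after ORMDL3, the table holds 113 further genes, of which 49 were tested. Only RPL19, a ribosomal protein gene, at 417 and 444 RPKM in shCON, and PSMB3, a proteasome subunit gene, at 170 and 182, reached a mean of 100 RPKM in shCON, and both lie to the left of MED1. LASP1, an actin-binding protein gene, came next by level with 93.1 and 99.2. None of the 6 tested genes that start between MED1 and ORMDL3 came near ERBB2: GSDMB, a gasdermin gene, stood at 66.4 and 57.0 RPKM in shCON, and TCAP, a sarcomere protein gene beside STARD3, at 30.5 and 35.0. TOP2A, the topoisomerase gene that can be amplified with ERBB2, had 52.9 and 38.5 RPKM in shCON and 66.5 and 56.0 in shZDHHC15, and was higher (log2 fold change 0.42, edgeR adjusted p = 0.0159).

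By change, 15 of the 49 tested neighbours were higher and 6 lower, with a median log2 fold change of 0.09, against 21.7% higher and 20.3% lower over all tested genes. On the left of MED1, 8 of 19 were higher and 2 lower, and on the right of ORMDL3, 7 of 24 were higher and 3 lower. Of the 6 between the members, 1 was lower and 5 did not pass the test. Among the called neighbours, the largest rises were those of PLXDC1 (6 and 6 against 29 and 25 counts, log2 fold change 2.02), SRCIN1 (138 and 119 against 549 and 512 counts, 1.92), RDM1P5 (1.84), AC080112.3 (1.76) and ARHGAP23 (1.29). PLXDC1 and AC080112.3 (5 and 7 counts in shCON) passed the filter only through the shZDHHC15 samples, so they could be called only higher. Both are counted among the 15. On opposite strands, PLXDC1 shares 664 exonic bases with RDM1P5 and AC080112.3 shares 291 with RARA, so their reads cannot be told apart there. The largest falls among the called neighbours were those of the noncoding AC090844.2, just beyond ORMDL3 (43 and 43 against 16 and 16 counts, log2 fold change -1.54), AC087491.1 (-1.25), TMEM99 (-0.87), the keratin gene KRT10 (-0.62) and LASP1 (-0.52). TMEM99 and KRT10 share 56 exonic bases on opposite strands. The 3 genes outside this window whose RPKM over the 4 samples lay nearest to that of ERBB2 were HMGA1 on chromosome 6 (Euclidean distance 0.19 in log2 RPKM), TMSB4X on X (0.198) and RPL13A on 19 (0.204). TMSB4X and RPL13A have near-identical copies elsewhere, and their counts are uncertain.

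The partners of each member were taken from lists of the pathways in which it works, whose median log2 fold changes ran from -0.34 (GRB7 family) to 0.58 (ERBB receptors and ligands), against 0.02 over all tested genes. The counts of each list stand beside 21.7% higher and 20.3% lower over all tested genes. Among 11 tested ERBB receptors and ligands, ERBB2 included, 5 were higher and 2 lower. EGFR rose from 2224 and 1741 to 3489 and 3730 counts (log2 fold change 0.74, edgeR adjusted p = 4.02e-05), and ERBB3, the kinase-impaired partner of ERBB2, from 961 and 972 to 1408 and 1367 (0.40, adjusted p = 0.00723). Nevertheless, ERBB2 remained far more abundant, at a mean of 472 RPKM in shZDHHC15 against 15 for EGFR and 8.02 for ERBB3. The ligand gene TGFA showed the largest fall, from 20.6 to 9.77 RPKM (-1.07), and NRG2 the largest rise, from 7 and 10 to 38 and 38 counts (2.02). NRG2 met the filter only with the shZDHHC15 samples. ERBB4 had at most 4 counts in a sample.

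Of 36 tested genes of the signalling chain below ERBB2, 12 were higher and 5 lower, with a median log2 fold change of 0.15. PIK3R1, the regulatory subunit of PI3-kinase, rose most (186 and 110 against 663 and 564 counts, 1.93), and NRAS fell most (1506 and 1253 against 806 and 820, -0.88). Of 14 tested genes that restrain or turn over the receptor, 3 were higher and 4 lower. ERRFI1, which binds and inhibits ERBB kinases, fell from 174 to 81.3 RPKM (-1.10, edgeR adjusted p = 3.53e-07), and the ubiquitin ligase gene CBLB rose by a log2 fold change of 0.47. Of 10 tested factors known to act on the ERBB2 promoter, 2 were higher and 3 lower. TFAP2A, an AP-2 factor, fell most (1199 and 946 against 716 and 683 counts, -0.74), and TFAP2B went from 0 counts in both shCON samples to 22 and 15, at least 5.68-fold higher with 3 counts per library as the floor. TFAP2B passed the filter only through the shZDHHC15 samples, so it could be called only higher. TFAP2A shares 11.4% of its exonic bases with TFAP2A-AS2 and 5.3% with TFAP2A-AS1, both on the opposite strand.

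Among the 32 Mediator subunits, MED1 included, 5 were higher and 11 lower, and MED25 rose most (0.68, with 18.7% of its exonic bases shared with an antisense gene) while MED19 fell most (-1.07). Of 7 CDK12 partners and relatives, 3 were higher and 4 did not pass the test. The 3 were CDK12, its paralog CDK13 (1298 and 1264 against 1782 and 1773 counts, 0.35, adjusted p = 0.0106) and the polymerase subunit gene POLR2A (0.36). CCNK, the cyclin of CDK12, had 444 and 352 counts in shCON and 415 and 396 in shZDHHC15 (-0.09, adjusted p = 0.614), but 59.5% of its exonic bases are shared with CCDC85C on the opposite strand. Of 3 tested members of the GRB7 family, GRB7 and GRB10 (686 and 653 against 587 and 569 counts, -0.34, adjusted p = 0.0291) were lower, and GRB14 had no more than 29 counts in a sample.

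Of 15 tested genes around ORMDL3 and sphingolipid synthesis, 5 were higher and 2 lower. SPTSSA, a small activating subunit of serine palmitoyltransferase, rose from 1911 and 1844 to 5164 and 4717 counts (1.27, edgeR adjusted p = 1.56e-07), and the ceramide synthase gene CERS5 fell by 0.39 on the log2 scale. The paralogs ORMDL1 (11.8 against 11.7 RPKM) and ORMDL2 (9.16 against 8.83) had log2 fold changes of -0.01 and -0.05 (adjusted p = 0.950 and 0.765) at levels far below ORMDL3, although 32.7% of the ORMDL2 exonic bases are shared with DNAJC14 on the opposite strand. Of 9 tested STARD3 relatives and sterol partners, 3 were higher and 1, STARD3 itself, lower. STARD4, a soluble sterol carrier, rose from 419 and 344 to 1342 and 1113 counts (1.57, adjusted p = 4.25e-07), and the close paralog STARD3NL had 5.67 against 6.43 RPKM (0.18, adjusted p = 0.259). Of 11 GPI anchor genes around PGAP3, 3 were higher and 8 did not pass the test, with the largest rise in PGAP1 (62 and 29 against 114 and 85 counts, 1.01). IKZF2 rose while IKZF3 fell within the 5 genes of the Ikaros family (159 and 114 against 508 and 408 counts, 1.63, edgeR adjusted p = 5.27e-06). Of 7 tested DARPP-32 partners, 2 were higher and 2 lower. The lower ones were the protein phosphatase genes PPP1CA (-0.72) and PPP1CC (-0.83). PPP1CA shares 11.7% of its exonic bases with CARNS1 on the opposite strand, and smaller parts with RAD9A and TBC1D10C.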

How the data were processed

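RNA-seq was analysed in 4 HCC1954 samples, 2 shCON and 2 shZDHHC15. The authors deposited raw counts per gene, not normalized, for 58735 genes with NEBNext Ultra libraries. The submitters' processing notes name HISAT2, StringTie, SAMtools and hg38, with no roles or versions. All identifiers, starts and ends matched GENCODE release 29 (GRCh38), and the deposited lengths equalled the union of exons. Of the per-sample columns, 4 were used and 0 left out.

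Counts were tested with edgeR 4.0.16 (R 4.3.3): filterByExpr, TMM factors, glmQLFit and glmQLFTest, Benjamini-Hochberg adjustment over 15817 genes, adjusted p under 0.05, no limit on fold change. The common biological coefficient of variation was 0.0878. RPKM were computed from TMM-scaled counts. On simulated counts for this comparison (15449 genes, 200 changed), 14.9% of changes of 0.3, 38.8% of 0.5, 69.4% of 1 and 84.8% of 1.5 (log2) were recovered, and 1.98% of calls were false. The simulation changed far fewer genes than were called in the data and drew them from all levels. These rates therefore need not hold for the data or for the abundant members. Shares have Wilson intervals (scipy 1.17.1). DESeq2 1.42.0 was an alternative. The members and lists were chosen with earlier results of these data known. Named besides the members are the 5 largest rises, 5 largest falls and 3 highest levels among neighbours, the largest rise and fall of each list with a few fixed paralogs and receptors, the marker genes, and the 3 genes nearest to ERBB2 in level. GSDMB, TCAP, TOP2A, PPP1CA, PNMT, MIR4728, ERBB4, NRG1, NRG3 and RARA were added after their values were seen.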

Additional observations from a re-analysis of the deposited data

How the results depend on the processing

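STARD3, MIEN1, GRB7 and IKZF3 were called lower under all 12 alternatives to the test, ORMDL3 lower under 11 and ERBB2 lower under 7. CDK12 was called higher under 9 and MED1 higher under 7, and PGAP3 and PPP1R1B were called under 0. Members called higher numbered 1 with upper-quartile factors, 1 by DESeq2 and 0 without a filter on low counts, and 0 to 2 when each sample was left out in turn (members lower, 4 to 6). MED1 missed the threshold with upper-quartile factors (0.30), DESeq2 (0.32) and no filter (0.31), CDK12 with no filter (0.33), and ERBB2 with library size only (-0.17) and with at least 10 counts in every sample (-0.23). Leaving out each sample in turn, with the lone sample assumed to vary like the other group, gave log2 fold changes of 0.16 to 0.47 for MED1, 0.25 to 0.42 for CDK12, -0.31 to -0.20 for ERBB2 and -0.42 to -0.29 for ORMDL3; that of PPP1R1B turned to -0.07 without shZDHHC15 1 (range -0.07 to 0.42). Without a filter 2282 genes were higher. Leaving out samples gave 2524 to 3406 higher and 2201 to 3476 lower genes, 11 to 14 higher and 5 to 8 lower neighbours. Within 500000 bases, 9 neighbours were higher and 2 lower, a smaller set by construction. Against TMM, library size only moved the median log2 fold change of all genes by 0.0739.

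In TPM, the shCON levels were 30 (MED1), 35.1 (CDK12), 4.84 (PPP1R1B), 2240 (STARD3), 614 (PGAP3), 1885 (ERBB2), 1654 (MIEN1), 2835 (GRB7), 3.15 (IKZF3) and 3083 (ORMDL3), another unit with the same order, and IKZF3 was at 0.906 RPKM by library size only. With principal transcript lengths, chosen after seeing the data, they were 11.1, 15.9, 3.54, 1604, 243, 1265, 1115, 1344, 0.963 and 1534 RPKM.

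With the replicate number as a block, ERBB2 kept -0.24 (edgeR adjusted p = 0.019), 2 members were higher and 6 lower, and 3710 genes were higher and 3491 lower. Same-numbered samples deviated together with a correlation of 0.0344. This value cannot show, from 2 samples a group, whether same-numbered samples were paired. The cause of the other shifts was not tested. With 2 samples a group, depth and spread leave small changes such as those of PGAP3 and PPP1R1B undecided.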

Other observations

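Some genes counted among the neighbours and lists above were not described there. MIR4728, a microRNA gene inside ERBB2, had 7 and 5 counts in shCON and 12 and 15 in shZDHHC15 and was not called (log2 fold change 1.03, 95% confidence interval -0.15 to 2.21, edgeR adjusted p = 0.15). Its reads cannot be told apart from those of ERBB2 transcripts. PNMT, an adrenaline-synthesis gene between STARD3 and PGAP3, had 47 and 38 counts in shCON and 33 and 22 in shZDHHC15 (-0.75, adjusted p = 0.0845). Among neuregulins, ligands that drive ERBB2 with ERBB3, NRG1 had 3 and 6 counts in shCON and 0 in both shZDHHC15 samples, too few to test, and NRG3 had 0 in all 4. ESR1, the oestrogen receptor gene, had 161 and 103 counts in shCON and 308 and 305 in shZDHHC15 (1.09, edgeR adjusted p = 0.000213), and PGR, the progesterone receptor gene, at most 1.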
